A study of Mus musculus with 6 samples.

Results

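Interferon-stimulated genes were examined in mouse tongue after 4NQO treatment, as a set of 39 genes given by name. Of these, 31 are linked mainly to type I interferon, 6 are GTPases linked mainly to interferon gamma, and Irf1 and Tap1 are induced by both. The split follows the interferon each gene is best known for, and many of the genes respond to both. A probe set annotated to that gene alone was found for 37 of the 39, among 18193 genes measured in this way, and where a gene had several the one with the highest mean signal was used. Isg15, a ubiquitin-like modifier, has only a probe set that it shares with Gm9706, and no probe set was annotated to Ifi44, so no value is given for either. No filter on low signals was applied, and the mean signal of all 37 measured genes was above the median of all probe sets.

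The 4NQO group was 3 adult C57BL/6J mice that had 4-nitroquinoline 1-oxide (4NQO), a carcinogen that forms DNA adducts and oxidative damage, in their drink at 100 μg/ml over 8 weeks. The control group was 3 adult C57BL/6J mice without treatment. RNA of each tongue was hybridised to its own Affymetrix array, and the comparison asks how the treatment changes gene expression in the tongue. The values are log2 signals, so that a difference of 1 is a doubling. An error written with ± is the SD between mice, and that of a log2 fold change is a standard error from limma.

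Type I interferons are secreted by cells that sense foreign or misplaced nucleic acid. They act through the receptor IFNAR and the transcription factor complex ISGF3, which contains STAT2 and IRF9 and binds the interferon-stimulated response element (ISRE). Interferon gamma, made by T and NK cells, acts through its own receptor and on genes that carry the gamma-activated site (GAS). The induced genes encode antiviral enzymes, nucleic acid sensors, GTPases that attack the vacuoles of intracellular parasites, and proteins of antigen presentation.

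Promoter sequence shows what many of these genes share. In the RefSeq promoter windows of GRCm38.p6, which run from 250 bases before to 50 bases after the start site, 29 of the 39 genes had an entry. The letters GAAANNGAA, the core of the ISRE, were searched on both strands (TTCNNTTTC on the opposite strand), and TTCNNNGAA, the letters of a GAS, reads the same way on both strands. The ISRE core was in 17 of 29 genes (58.6%), against 2638 of 27025 genes with a promoter (9.76%). The GAS letters were in 7 of 29 (24.1%), against 2582 of 27025 (9.55%), and both were in 4 of 29 (13.8%), against 1.42% of all genes. By class, the ISRE core was in 13 of 22 type I-linked genes and in 4 of 5 GTPases. The GAS letters were in 5 of 22 type I-linked genes and in 1 of 5 GTPases, Igtp. A match describes letters in a window and is not a binding site, and some matches overlap each other. The stretches around the matches are shown for 3 type I-linked genes, for 2 GTPases and for Irf1, because they carry the letters once, in tandem, or in both forms. They are written 5′ to 3′ on the strand of the gene, with the letters that match either motif in capitals.
Oas1a, chr5:120907526-120907638, minus strand: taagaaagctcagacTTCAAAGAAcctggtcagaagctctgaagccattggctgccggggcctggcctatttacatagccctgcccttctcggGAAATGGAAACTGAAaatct
Oas3, chr5:120777705-120777749, minus strand: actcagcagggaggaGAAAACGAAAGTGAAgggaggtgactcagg
Ifit1, chr19:34640765-34640828, plus strand: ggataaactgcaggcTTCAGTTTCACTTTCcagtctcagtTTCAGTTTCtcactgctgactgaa
Gbp2, chr3:142620590-142620628, plus strand: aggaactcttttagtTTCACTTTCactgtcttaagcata
Igtp, chr11:58199496-58199545, plus strand: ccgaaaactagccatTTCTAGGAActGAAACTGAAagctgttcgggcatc
Irf1, chr11:53769909-53769947, plus strand: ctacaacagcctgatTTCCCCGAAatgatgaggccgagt
Oas1a and Oas3 held pairs of ISRE cores that overlap by 3 letters, and Ifit1 held 3 cores. Igtp held a GAS match beside an ISRE core, Oas1a held one farther from its cores, Gbp2 held a single ISRE core, and Irf1 held a GAS match alone.

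No gene of the set passed limma's test between 4NQO-treated and control tongue at an adjusted p under 0.05, where 0.126% of all genes were higher in 4NQO and passed. SAM, which permutes the group labels, called none of the 37 genes either, nor did the methods' t-test after Benjamini-Hochberg adjustment. At an unadjusted p under 0.05, 25 of 37 genes were higher in 4NQO and 0 were lower. Over all genes 6.68% were higher and 681 of 18193 lower. With the methods' t-test and no adjustment, 8 of 37 were higher, against 5.75% of all genes. The 3 4NQO values lay above all 3 control values for 11 of 37 genes and below them for 0, against 9.59% of all genes above. The log2 fold change was above 0 for 36 of 37 genes (97.3%), where it was above 0 for 47.7% of all genes. Its median was 0.88, a 1.84-fold difference, with a range of -0.15 to 2.22, and over all genes the median was -0.01. These genes respond to a common signal, so they are not independent of each other, and no p is given for the set.

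**Figure D1:**
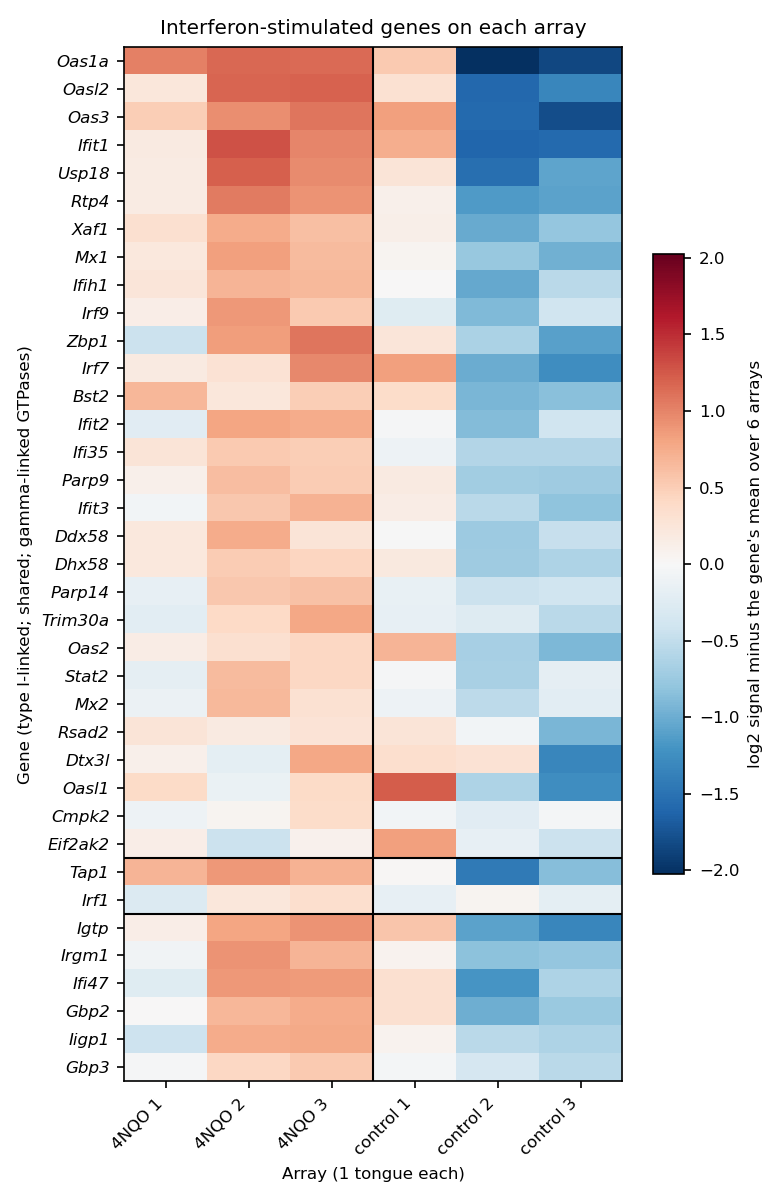
Log2 signal minus the mean of each gene over the 6 arrays, for the 37 measured interferon-stimulated genes (rows, by class, then by fold change) on the 3 4NQO and 3 control arrays (columns), with red above and blue below the mean of the gene. Controls 2 and 3 are the lowest arrays for 32 of 37 genes, and control 1 lies with the 4NQO arrays for most of them.

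The arrays did not divide by group for most of the set. Controls 2 and 3 were below all 4 other arrays for 32 of 37 genes (86.5%), against 6.01% of all genes, and control 1 was the highest control for 35 of 37 (94.6%), against 29.5% of all genes. Control 1 exceeded the mean of the other controls by a median of 0.90, a 1.86-fold difference, with a range of -0.10 to 2.52, while the median over all genes was -0.03. Among the treated tongues 4NQO 1 was the lowest for 32 of 37 genes (86.5%), against 32.2% of all genes. Control 1 was above 4NQO 1 for 24 of 37 genes (64.9%), against 47.2% of all genes. It was above all 4NQO arrays for 3 of 37 genes (8.11%), Oas2, Oasl1 and Eif2ak2, against 25.9% of all genes. The median level of the 37 genes, as log2 signal minus the mean of each gene, was 0.14 in 4NQO 1, 0.67 in 4NQO 2 and 0.66 in 4NQO 3, against 0.15 in control 1, -0.75 in control 2 and -0.78 in control 3. Control 1 and 4NQO 1 thus had about the same level, between the other treated and the other control tongues.

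No label sets control 1 apart, and leaving it out is 1 of 6 removals of single arrays. Its high level was seen in the same genes, so the p-values without it are a description and not independent evidence. Without control 1, 2 genes passed limma's test over all genes, Oas1a (log2 fold change 3.04, adjusted p = 0.00719) and Oas3 (2.52, adjusted p = 0.0321), where 0.0989% of all genes were higher and passed. At an unadjusted p under 0.05, 32 of 37 genes were then higher, against 5.10% of all genes, and 32 of 37 did not overlap between groups, against 13.0% of all genes. The median log2 fold change was then 1.16, a 2.24-fold difference. Tap1 had an adjusted p of 0.0504 without control 1. Without 4NQO 1 the counts were 29 genes at an unadjusted p under 0.05, against 5.79% of all genes, and 30 genes without overlap, against 14.0%, and no gene of the set passed the adjusted threshold. The count at an unadjusted p under 0.05 was 12 without 4NQO 2 (5.22% of all genes), 14 without 4NQO 3 (5.85%), 12 without control 2 (4.58%) and 13 without control 3 (8.07%). The median log2 fold change of the set ranged from 0.70 to 1.16 over the 6 removals.

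The 2-5A synthetase family had the largest median of the gene families in the set, 1.68 over 5 genes. Oas1a, which on sensing double-stranded RNA makes the 2-5A that activates RNase L, had log2 signals of 9.20, 9.34 and 9.32 in 4NQO tongues, against 8.71, 6.15 and 6.34 in control tongues. All treated tongues lay above all control tongues, and the treated values were close together while control 1 stood far above the other controls. The means were 9.29 ± 0.08 in 4NQO and 7.07 ± 1.43 in control (SD, n = 3 each), a log2 fold change of 2.22 (standard error from limma, SE, 0.60, 4.66-fold, adjusted p = 0.254). Oas3, a large synthetase of the same kind, had 5.81, 6.26 and 6.39 in 4NQO tongues, against 6.15, 3.74 and 3.52 in control tongues. Control 1 fell within the treated range, and the other controls were far below it. The log2 fold change of Oas3 was 1.68 (SE 0.63, 95% interval 0.23 to 3.13). Oasl2, an OAS-like protein, had 6.79, 7.73 and 7.75 in 4NQO tongues, against 6.87, 4.96 and 5.24 in control tongues, with a log2 fold change of 1.73 (SE 0.50, adjusted p = 0.280). Here 4NQO 1 and control 1 were nearly equal. Oas2 and Oasl1 had log2 fold changes of 0.60 and 0.44, and for both control 1 was the highest of the 6 arrays. All 5 genes are on chromosome 5, where Oasl2 lies next to Oasl1 and Oas2 next to Oas3.

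**Figure D2:**
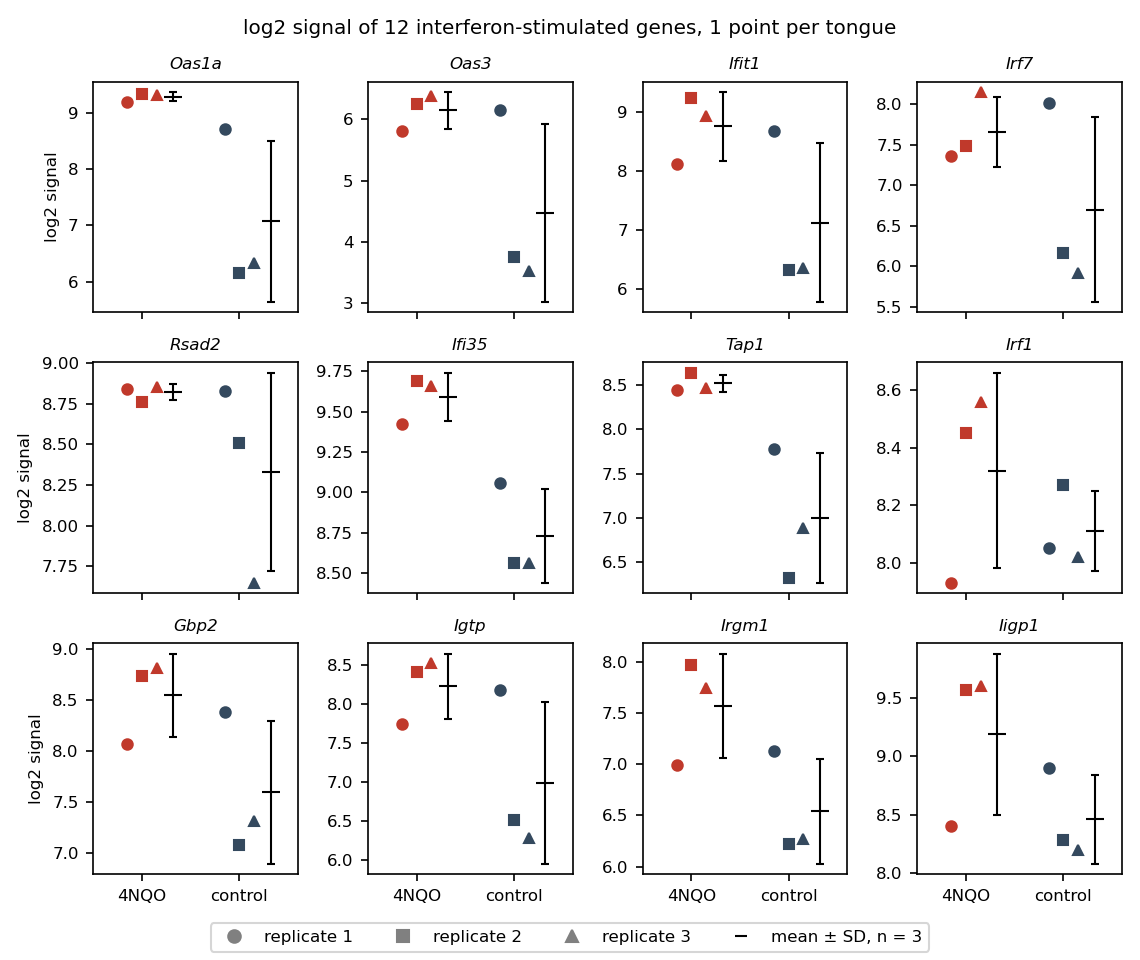
Log2 signal of 12 interferon-stimulated genes, 1 point for each tongue (circle, square and triangle for replicates 1, 2 and 3), 4NQO left and control right, with the mean and SD of each group (n = 3) beside the points and a separate vertical scale for each gene. In Oas3, Ifit1, Irf7 and Igtp the control 1 circle lies among the 4NQO points, while in Oas1a, Ifi35 and Tap1 the groups do not overlap.

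The IFIT proteins, which bind RNA that lacks the marks of host messages, and Usp18, the protease that removes ISG15 and dampens IFNAR signalling, also had controls 2 and 3 as the lowest arrays. Ifit1 had log2 signals of 8.11, 9.23 and 8.92 in 4NQO tongues, against 8.67, 6.32 and 6.36 in control tongues. Control 1 was above 4NQO 1, and the other controls were lower than every other array. The log2 fold change of Ifit1 was 1.63 (SE 0.61, 3.10-fold, adjusted p = 0.421). Ifit2 had a log2 fold change of 0.88 and Ifit3 one of 0.81, and the groups overlapped for both. Usp18 had 1.55 (SE 0.46, 2.93-fold), also with overlap. All 4 genes were past an unadjusted p of 0.05. The Ifit genes stand together on chromosome 19, with no other protein-coding gene between Ifit2 and Ifit3.

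The antiviral effectors had the smallest median of the families, 0.53 over 6 genes. Mx1, a dynamin-like GTPase of which C57BL/6 mice carry a defective copy, had log2 signals of 4.99, 5.60 and 5.41 in 4NQO tongues, against 4.82, 4.01 and 3.80 in control tongues. The groups did not overlap, and the log2 fold change was 1.12 (SE 0.29, 2.18-fold, adjusted p = 0.230). Rsad2, which encodes viperin, had 8.84, 8.76 and 8.85 in 4NQO tongues, against 8.83, 8.51 and 7.65 in control tongues. Control 1 equalled the treated tongues, control 2 was slightly lower, and control 3 was well below. The log2 fold change of Rsad2 was 0.49 (SE 0.28), and its other probe sets gave 0.50 and 0.63. Bst2, or tetherin, which holds budding virus at the cell surface, had 0.94, and Mx2 had 0.57. Cmpk2, a mitochondrial nucleotide kinase whose gene lies next to Rsad2 on chromosome 12, had 0.21. Eif2ak2, the kinase PKR that halts translation on sensing double-stranded RNA, had -0.15 (SE 0.33), the only value below 0 in the set. Its log2 signals were 5.34, 4.76 and 5.28 in 4NQO tongues, against 6.03, 5.03 and 4.76 in control tongues, and its 2 other, dimmer probe sets gave 0.26 and 0.36.

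Of the 4 nucleic acid sensors, 3 did not overlap between groups, against 9.59% of all genes, and these were the RIG-I-like receptors. Ifih1, which encodes MDA5, had log2 signals of 8.19, 8.64 and 8.61 in 4NQO tongues, against 7.96, 6.91 and 7.40 in control tongues, a log2 fold change of 1.05 (SE 0.27, 2.08-fold, adjusted p = 0.228). Ddx58, which encodes RIG-I, had 6.39, 6.93 and 6.44 in 4NQO tongues, against 6.18, 5.44 and 5.71 in control tongues, a log2 fold change of 0.81 (SE 0.24). For both genes the lowest treated tongue, 4NQO 1, was close above control 1. The 2 other probe sets of Ddx58 gave 0.13 and 0.03. Dhx58, which encodes LGP2, had 0.77, and its groups were apart by 0.01. Its other probe sets, both dim, gave 0.19 and 0.28. Zbp1, a sensor of Z-form nucleic acid that can start necroptosis, had 1.00 (SE 0.46) with overlap, since 4NQO 1 was below control 1. Its second probe set gave 0.38.

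The transcription factors that carry the type I signal gave unequal differences. Irf9, the DNA-binding part of ISGF3, had log2 signals of 7.24, 7.99 and 7.64 in 4NQO tongues, against 6.86, 6.21 and 6.71 in control tongues. Every treated tongue was above every control tongue, and the log2 fold change was 1.03 (SE 0.25, 2.04-fold, adjusted p = 0.194). Stat2, its partner, had 0.58 (SE 0.26), with 4NQO 1 below control 1 and level with control 3. Irf7, which amplifies the production of type I interferon, had 7.36, 7.48 and 8.15 in 4NQO tongues, against 8.01, 6.17 and 5.92 in control tongues. Control 1 was above 4NQO 1 and 4NQO 2, and the log2 fold change of 0.96 had an SE of 0.52 (adjusted p = 0.561).

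Among the other type I-linked genes, Ifi35 had the smallest p of the set. Ifi35, an interferon-induced leucine zipper protein, had log2 signals of 9.42, 9.69 and 9.66 in 4NQO tongues, against 9.06, 8.56 and 8.56 in control tongues. The groups were clearly apart, with a log2 fold change of 0.86 (SE 0.17, 1.82-fold, adjusted p = 0.136), and its other probe sets gave 0.55 and 0.52. Xaf1, a pro-apoptotic antagonist of XIAP, had 8.31, 8.74 and 8.60 in 4NQO tongues, against 8.10, 6.96 and 7.21 in control tongues, a log2 fold change of 1.13 (SE 0.29, adjusted p = 0.227). Rtp4, which encodes a receptor transporter protein, had 8.18, 9.06 and 8.91 in 4NQO tongues, against 8.11, 6.86 and 6.92 in control tongues, a log2 fold change of 1.42 (SE 0.37, adjusted p = 0.233). In Xaf1 and Rtp4 the groups did not overlap, but control 1 was only just below 4NQO 1, and the second, dim probe set of each gave 0.03 for Xaf1 and 0.24 for Rtp4. Trim30a, a TRIM protein, had 0.65 with overlap. Parp9, Parp14 and Dtx3l, which encode ADP-ribosyltransferases and the ubiquitin ligase that pairs with PARP9, are neighbours on chromosome 16 and had 0.82, 0.65 and 0.46. Dtx3l differed from its neighbours in that control 2 was level with control 1, with 7.16 in control 1, 7.12 in control 2 and 5.50 in control 3.

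The genes induced by both interferons differed from each other. Tap1, a subunit of the transporter that feeds peptides to MHC class I, had log2 signals of 8.45, 8.64 and 8.47 in 4NQO tongues, against 7.78, 6.32 and 6.89 in control tongues. The treated tongues were close together and all above control 1, with a log2 fold change of 1.52 (SE 0.33, 2.87-fold, adjusted p = 0.149). The 3 other probe sets of Tap1, all dim, gave 0.15, -0.17 and -0.10. Irf1, a transcription factor of the interferon response, had 7.93, 8.45 and 8.56 in 4NQO tongues, against 8.05, 8.27 and 8.02 in control tongues. Here the treated tongue 4NQO 1 was the lowest array of all, and control 1 was below control 2. The log2 fold change of Irf1 was 0.20 (SE 0.19, 95% interval -0.24 to 0.65).

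The interferon gamma-linked GTPases had log2 fold changes of 0.62 to 1.23, with a median of 0.97. Gbp2, a guanylate-binding protein, had log2 signals of 8.07, 8.74 and 8.82 in 4NQO tongues, against 8.39, 7.08 and 7.32 in control tongues, a log2 fold change of 0.95 (SE 0.35), and its second probe set gave 1.03. Gbp3 had 6.32, 6.76 and 6.88 in 4NQO tongues, against 6.31, 6.00 and 5.80 in control tongues, a log2 fold change of 0.62 (SE 0.21, adjusted p = 0.370). Gbp3 was the only one of the 6 GTPases without overlap between groups, by a margin of 0.01. Igtp, an immunity-related GTPase also called IRGM3, had 7.74, 8.41 and 8.52 in 4NQO tongues, against 8.17, 6.52 and 6.28 in control tongues, a log2 fold change of 1.23 (SE 0.47, 2.35-fold). Irgm1, a regulator of the same GTPase family, had 6.99, 7.97 and 7.74 in 4NQO tongues, against 7.13, 6.22 and 6.27 in control tongues, a log2 fold change of 1.03 (SE 0.32). In both, control 1 was above 4NQO 1. Ifi47, another immunity-related GTPase, had 6.80, 7.93 and 7.91 in 4NQO tongues, against 7.37, 5.86 and 6.43 in control tongues, a log2 fold change of 0.99 (SE 0.43). Iigp1, an effector that loads onto parasite vacuoles, had 8.40, 9.57 and 9.60 in 4NQO tongues, against 8.90, 8.28 and 8.20 in control tongues, a log2 fold change of 0.73 (SE 0.34). Its second, dimmer probe set gave 0.96 (SE 0.33, limma's unadjusted p = 0.0184). In Gbp2, Ifi47 and Iigp1 as well, control 1 was above 4NQO 1. At an unadjusted p under 0.05, 4 of the 6 were higher by the probe set of highest mean signal (Gbp2, Gbp3, Igtp and Irgm1).

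**Figure D3:**
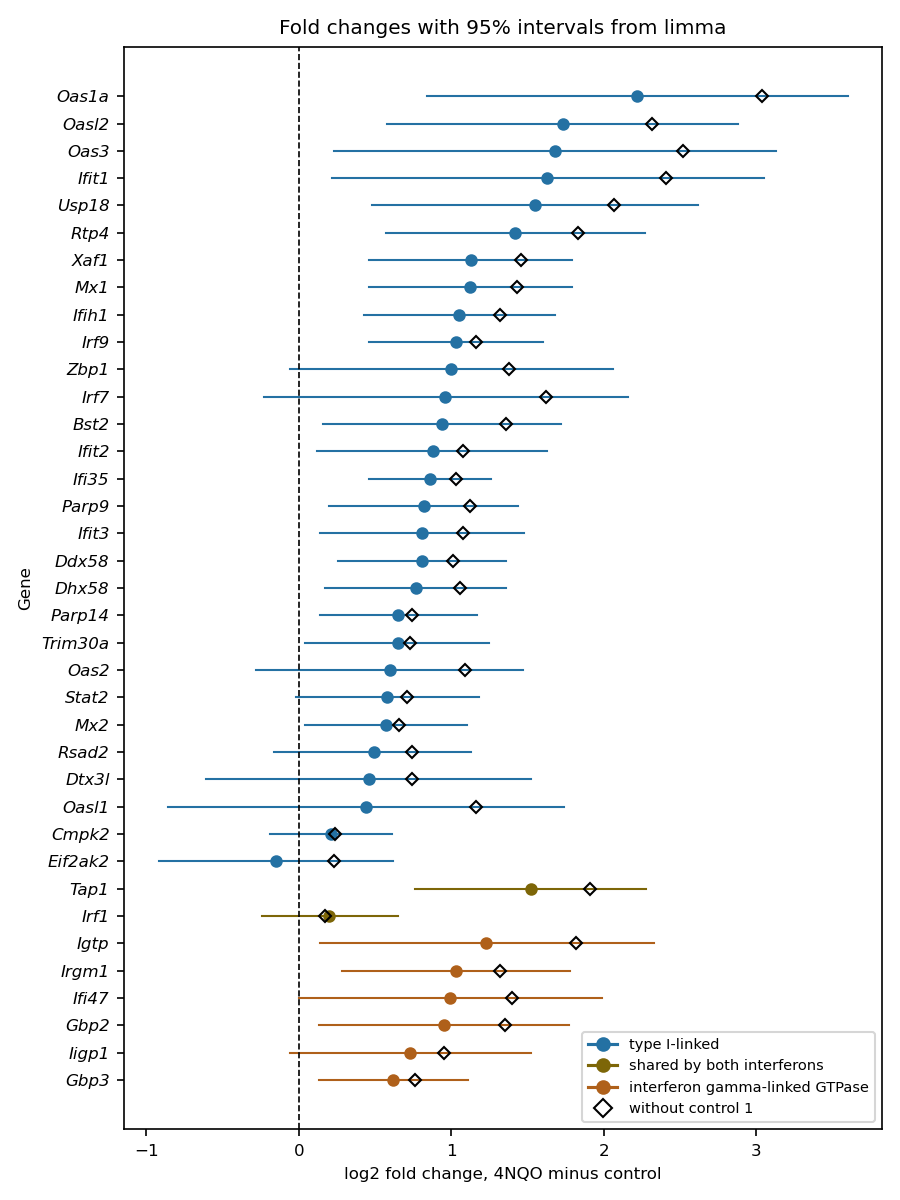
Log2 fold change of 4NQO over control for each of the 37 genes (filled points, with 95% intervals from limma), coloured by class, and the fold change without control 1 (open diamonds, drawn without an interval). The fold changes run from -0.15 for Eif2ak2 to 2.22 for Oas1a, the ranges of both interferon classes overlap, and leaving out control 1 moves most genes to the right.

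Type I-linked genes and interferon gamma-linked GTPases were not separated by these arrays. The median log2 fold change was 0.86 over 29 type I-linked genes and 0.97 over 6 GTPases, a difference of -0.11. Without control 1 the medians were 1.12 and 1.34, and without control 2 the difference was 0.04 instead. At an unadjusted p under 0.05, 20 of 29 type I-linked genes and 4 of 6 GTPases were higher, and 9 of 29 and 1 of 6 did not overlap between groups, both to be read against the 6.68% and 9.59% of all genes given above. The median level of type I-linked genes was 0.17, 0.64 and 0.61 in 4NQO tongues, against 0.19, -0.73 and -0.81 in control tongues. For the GTPases it was -0.04, 0.77 and 0.76 in 4NQO tongues, against 0.20, -0.91 and -0.69 in control tongues. On each array the type I-linked level minus the GTPase level was 0.22, -0.14 and -0.15 in 4NQO tongues, against -0.01, 0.18 and -0.12 in control tongues, so that the groups overlapped. The ISRE core did not divide the set by response either. Measured genes with it had a median log2 fold change of 0.94 (15 genes) and those without it 0.92 (12 genes), and with the GAS letters the median was 0.88 (7 genes), against 0.96 without (20 genes).

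Other genes of the interferon pathway came from a list of 79, of which 67 were measured and none passed limma's adjusted threshold. At an unadjusted p under 0.05, 21 were higher, against 6.68% of all genes. At the same threshold 1 was lower, Ifna5 (-0.34), against 681 of 18193 genes. Of the 10 interferon genes on the list 6 were measured, and no value was at hand for Ifnk, Ifne, Ifnl2 and Ifnl3. The 6 measured interferon genes were dim, with log2 fold changes of -0.34 to 0.19. Ifng, which encodes interferon gamma, had 2.11, 2.01 and 2.25 in 4NQO tongues, against 2.12, 1.91 and 2.22 in control tongues. Its groups were mixed. Ifnb1, which encodes interferon beta, had 0.08. Such signals are under the median of every array, and whether they exceed background is unknown. Of the 6 receptor genes and the 4 measured kinases and STATs, 0 passed an unadjusted p of 0.05 in either direction, with log2 fold changes of -0.27 to 0.10 for receptors. Among 13 genes of DNA and RNA sensing the median log2 fold change was 0.14. Of these 13, 2 were higher without overlap between groups, against 9.59% of all genes. They were Myd88, an adaptor of Toll-like receptors, with 0.38 and Cgas, the sensor of cytosolic DNA, with 0.43. Of 5 negative regulators, 0 passed an unadjusted p of 0.05 in either direction.

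Log2 fold changes were above 0 for all 11 measured genes of antigen processing and for 2 of 3 chemokines. Of the 11 antigen processing genes, 8 were higher at an unadjusted p under 0.05, against 6.68% of all genes, and 8 did not overlap between groups, against 9.59% of all genes. B2m, the light chain of MHC class I, had log2 signals of 12.43, 12.79 and 12.68 in 4NQO tongues, against 11.94, 11.25 and 11.57 in control tongues, a log2 fold change of 1.05 (SE 0.18, adjusted p = 0.0886). Psmb8, an immunoproteasome subunit, had 8.44, 8.98 and 9.17 in 4NQO tongues, against 8.00, 7.48 and 7.51 in control tongues, a log2 fold change of 1.20. Nlrc5, the transactivator of MHC class I, had 7.18, 7.83 and 7.27 in 4NQO tongues, against 6.43, 4.58 and 4.43 in control tongues, a log2 fold change of 2.28. In all 3 genes control 1 was the highest control but below every treated tongue, and Tapbp, or tapasin, had 0.56 with control 1 between the other controls. Cxcl9 and Cxcl10, chemokines that draw T cells, had log2 fold changes of 2.32 and 2.08, and both overlapped. Cxcl9 had 6.96, 7.95 and 7.91 in 4NQO tongues, against 7.90, 4.06 and 3.90 in control tongues, so control 1 was level with the treated tongues. Cxcl11 had -0.04. Of 19 other interferon-induced genes, 9 were higher at an unadjusted p under 0.05, against the same 6.68%, among them Lgals3bp (0.98), Ifi27l2a (1.52), Ifitm3 (0.76) and Helz2 (0.58). Without control 1, Nlrc5 (log2 fold change 2.92, adjusted p = 0.0315), Cxcl9 (3.63, adjusted p = 0.0321) and Ifi27l2a (2.00, adjusted p = 0.0315) passed limma's test, where 0.0989% of all genes were higher and passed. Control 1 was high in these genes too, so this is a description, and 0 of the 67 genes passed under each of the other 5 removals.

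**Figure D4:**
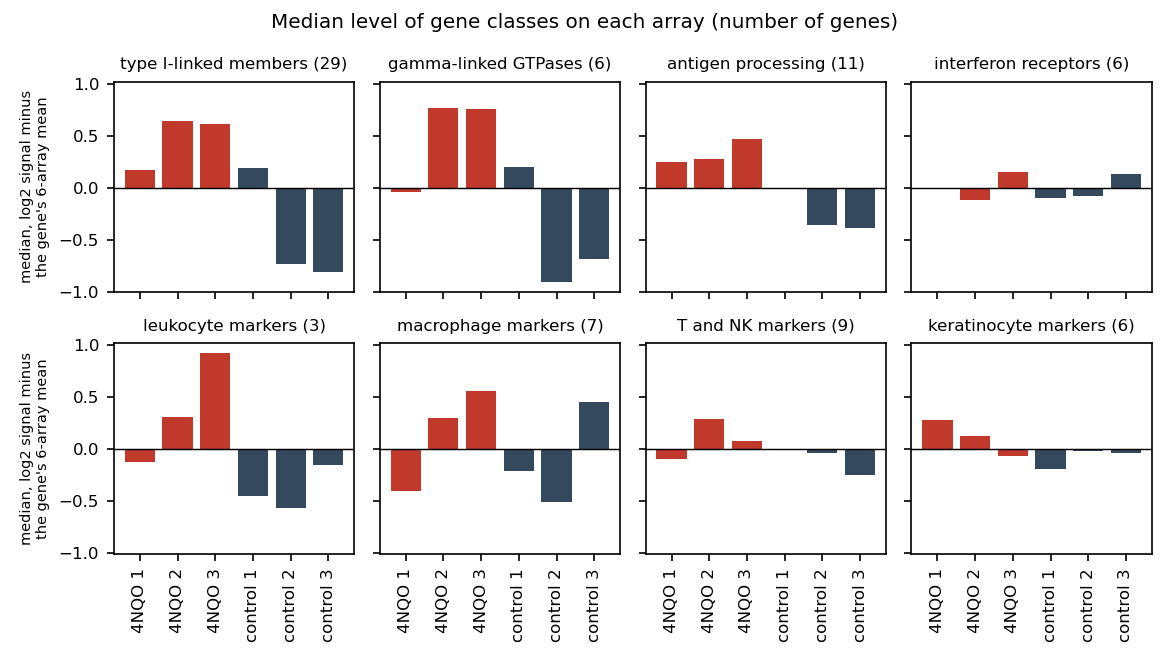
Median over each class of log2 signal minus the mean of each gene over the 6 arrays (vertical axis), as 1 bar for each 4NQO array and each control array, with the number of genes in brackets. Both interferon classes show 4NQO 2 and 4NQO 3 high and controls 2 and 3 low, receptors stay within 0.15 of 0, and leukocyte markers are highest in 4NQO 3 and lowest in control 2.

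Tongue is a mixture of cells, and in bulk RNA fewer cells of a type cannot be told apart from less RNA per cell. Markers of keratinocytes and skeletal muscle were bright on all arrays, with summed levels of 15.71 to 15.86 in 4NQO and 15.63 to 15.69 in control for keratinocytes (log2 of the summed signal), and of 15.79 to 15.92 in 4NQO and 15.79 to 16.07 in control for muscle, both main tissues of the tongue. Leukocyte markers were higher at an unadjusted p under 0.05 for 3 of 3 genes, against 6.68% of all genes, Ptprc, or CD45, with a log2 fold change of 1.12, Coro1a with 0.93 and Laptm5 with 0.57. Their summed level was 8.51 to 9.54 in 4NQO and 8.03 to 8.50 in control, and their median level was -0.12, 0.31 and 0.93 in 4NQO tongues, against -0.45, -0.56 and -0.15 in control tongues. By this median control 3 was the highest control, and it was so for macrophage and monocyte markers too (0.46). For B cell markers control 1 was the highest, with 0.39, against 0.05 in control 2 and 0.16 in control 3. For T and NK cell markers controls 1 and 2 were about level, and control 3 was lower (-0.25). Of 9 T and NK cell markers 3 were higher at an unadjusted p under 0.05, against the same 6.68%, Cd3g (0.94), Nkg7 (0.87) and Gzmb (0.83). By mean signal 5 of the 9 were below the array medians, these 3 among them. The other T and NK cell markers had log2 fold changes of -0.34 to 0.20. The summed levels of the list were 7.32 to 7.78 in 4NQO and 7.16 to 7.52 in control. Of 7 macrophage and monocyte markers 1 was higher at an unadjusted p under 0.05, against the same 6.68%, Fcgr1 (1.29), itself an interferon-induced gene. The summed levels of this list were 11.43 to 12.48 in 4NQO and 11.42 to 12.49 in control. Of 4 markers of plasmacytoid dendritic cells, a main source of type I interferon, 0 were higher at an unadjusted p under 0.05. By mean signal 3 were below the array medians, at 2.80 to 4.25, and Tcf4 had 9.24. The summed levels, 8.94 to 9.53 in 4NQO and 9.21 to 9.68 in control, were thus mostly those of Tcf4. In the other lists, 2 of 6 keratinocyte markers were higher at an unadjusted p under 0.05, against the same 6.68% (Krt6a with 0.34 and Krt14 with 0.32). Lower at that threshold were 1 of 3 B cell markers (Cd79a with -0.59) and 1 of 5 fibroblast markers (Col1a2 with -0.50). Over all genes, 681 of 18193 were lower. The mean signal of Cd79a, 4.08, was under the array medians. Of the 6 muscle and 4 endothelial markers 0 passed in either direction. The part of leukocyte content in the levels of the interferon-stimulated genes was not tested.

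Over all 18193 genes, 23 were higher and 1 lower in 4NQO at an adjusted p under 0.05. Array medians were 4.45 to 4.55 in 4NQO and 4.57 to 4.60 in control, and correlations between arrays were 0.974 to 0.989. The 3′ minus 5′ difference of the Gapdh control probe sets, a sign of RNA quality, was 0.47, 1.07 and 0.33 in 4NQO tongues, against 0.09, 0.20 and 1.67 in control tongues. That of actin was 1.12, 0.95 and 0.55 in 4NQO tongues, against 0.75, 0.83 and 1.01 in control tongues. Control 1 had the lowest Gapdh difference, and 4NQO 1 had the highest actin difference and the third highest Gapdh difference. The part of RNA quality in the levels of the set was not tested. Without 4NQO 2 and control 3, the arrays of weakest 5′ Gapdh signal, 6 of 37 genes were higher at an unadjusted p under 0.05, against 6.58% of all genes, and 13 did not overlap, against 23.1% of all genes. This left 2 arrays in each group and a median log2 fold change of 0.67. Of the 37 genes, 16 had further probe sets, and 21 of these 23 probe sets had a log2 fold change above 0, with a range of -0.17 to 1.03 and 4 at an unadjusted p under 0.05. With 3 mice in each group, no two-sided permutation p can be below 0.1, and the number of arrays limits the precision of every value given.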

How the data were processed

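Tongue RNA of 3 4NQO-treated and 3 control C57BL/6J mice was measured on Affymetrix arrays. The authors deposited normalized log2 signals, 1 per probe set, made in R by a normalization not given in the sources used here. Genes were named through the platform annotation, in which 34945 of 45101 probe sets have 1 gene and 932 have several. Groups were compared with limma 3.58.1 in R 4.3.3 (lmFit and eBayes with an intensity trend) on 1 probe set per gene, with Benjamini-Hochberg adjustment over 18193 genes and a threshold of 0.05. Folds are 2 to the power of the log2 fold change. SAM, the method of the study, was coded anew and used all 20 permutations of the labels and a median of fewer than 1 false positive. The test was checked on simulated data. As alternatives, arrays were quantile normalized or centred, dim genes were dropped, probe sets were averaged or chosen by variance, the intensity trend was omitted, the replicate number was used as a block, each array was left out in turn, and SAM and the methods' t-test were run. A fit without 4NQO 2 and control 3 was added after seeing the data. The genes of the set and of the pathway and marker lists were chosen with earlier results of these data known. All measured genes of the set could be named. Values on every array were given by rule for the 10 of smallest unadjusted p, for Irf7, Ifit1, Mx1 and Rsad2, for the 6 GTPases, Irf1 and Tap1, and of each other list up to 4 genes of smallest p could be named. Ifng, and the values on every array of Oas3, Eif2ak2, Dtx3l and the pathway genes, were chosen after their values were seen. Promoters are those of RefSeq for GRCm38.p6.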

Additional observations from a re-analysis of the deposited data

How the results depend on the processing

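With 3 tongues per group and 1 tissue extract per tongue, the number of arrays limits all values here, and no measure of background was at hand for dim signals. The log2 fold changes of the 37 genes were recomputed under 14 other settings. Of these 518 values 511 kept their direction and their side of the threshold, 2 passed it and 5 changed sign. No gene of the set passed with all arrays, so keeping its side says little, and the tally does not measure size. With the mean of all probe sets of a gene, Tap1 went from 1.52 to 0.35 and Cmpk2 from 0.21 to 0.41, both counted as kept. No gene of the set passed the adjusted threshold except Oas1a and Oas3 without control 1, so that the count went between 0 and 2 over the removals of single arrays. The count at an unadjusted p under 0.05, 25 with all arrays, was 12 to 32 over these removals, 8 with the t-test of the methods, and 6 without 4NQO 2 and control 3, a choice made after seeing the data. The count without overlap, 11 with all arrays, was 11 to 32 over single removals, with 32 without control 1 and 30 without 4NQO 1, and was 8 with each array centred on its median. The difference between the medians of type I-linked genes and GTPases, -0.11, was -0.30 with the mean of all probe sets of a gene, and the cause was not tested. Eif2ak2 changed sign to 0.16 with the mean of its probe sets, and over single removals its log2 fold change was -0.40 to 0.23 (0.04 without 4NQO 2). Oasl1 was -0.08 without control 3 and otherwise reached 1.16, and Dtx3l was -0.09 without control 3 and otherwise reached 0.74.

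Over all genes, 23 were higher and 1 lower. The number higher was 15 with the mean of all probe sets, 14 with the probe set of largest variance, 4 without 4NQO 2 and control 3, 83 with SAM, 1 with the t-test after Benjamini-Hochberg adjustment, and 0 to 25 over single removals (0 without control 2, 1 without 4NQO 2 and 10 without 4NQO 1). The number lower was 3 without dim genes, 2 without an intensity trend, 0 without 4NQO 2 and control 3, 0 with SAM, and 0 to 2 over single removals.

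The replicate numbers only name the samples. Deviations of same-numbered tongues from their group means correlated at 0.29, -0.51 and 0.05. With the replicate number as a block, 2 genes were higher and 0 lower over all genes, and 0 of the 37 genes passed (20 at an unadjusted p under 0.05).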
